A study of Mus musculus with 5 samples.

Results

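The heat shock proteins and chaperonins measured here were the probes whose gene symbol on the array starts with Hspa, Hspb, Hspd, Hspe, Hsph, Hsp90, Dnaja, Dnajb or Dnajc, together with Tcp1, Cct2, Cct3, Cct4, Cct5, Cct6a, Cct7 and Cct8. The rule used names only and took 80 of 19087 genes with a symbol, on 171 of 44290 probes. Of these genes, 77 were measured on at least 3 arrays and could be tested. Hspbp1 and Hspbap1 were members through their prefix alone, since the first acts on Hsp70 and the second binds a small heat shock protein.

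The study compared the hippocampus of newborn mice after maternal cocaine with that of controls on 5 two-colour whole-genome arrays. Pregnant CD1 dams were injected under the skin with cocaine hydrochloride at 20 mg/kg, 2 times a day on gestational days 8 to 19, and control dams received saline on the same days. Both groups were pair-fed, had 10 litters each, and their pups were fostered. For gene expression, the pyramidal cell layer (regions C1, C2 and C3) was cut by laser from the right hemisphere of 1 male pup per litter on postnatal day 3. The paper does not describe whole-genome arrays, so it does not state that their RNA came from this tissue. The array RNA was labelled with one Alexa dye for cocaine and another for saline. No array carried swapped dyes (0 of 5), so an effect of dye and an effect of cocaine cannot be told apart. Nothing states that the arrays represent different litters. Each p-value therefore covers variation among these 5 hybridizations, part or all of which may be technical.

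Each deposited value was a log2 ratio of the 2 channels. Its direction is not stated, and cocaine over saline is likely because the cocaine sample was entered as the first channel and saline as the second. "Higher" below means a log2 ratio above the median of the array. A ratio holds no level, so whether the dissected tissue expressed a marker could not be checked. In tissue of this kind, fewer cells of a type and less RNA per cell cannot be told apart.

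The arrays fell into 2 sets by the kind of value they held. On arrays 1 and 2, 34% and 38.2% of the values equalled the log2 ratio of 2 whole numbers up to 30, to 3 decimals. On arrays 3, 4 and 5 the share was 85.8% to 86.7%. Exact zeros, taken as not measured, numbered 4776 on array 1 and 21134 on array 5, with the other arrays between, and the deposited median ranged from -2.68 on array 1 to 0.26 on array 5. For the chaperone probes, values remained on 161, 158, 143, 146 and 90 of the 171 probes on arrays 1 to 5.

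Molecular chaperones hold or refold proteins that are not yet, or no longer, in their native shape. Hsp70 proteins bind short hydrophobic stretches of a chain, J-domain proteins deliver the clients and start ATP hydrolysis, and Hsp110 proteins and other exchange factors release the nucleotide. Hsp90 acts later on clients such as kinases and steroid receptors, while the chaperonins, Hsp60 in mitochondria and TRiC in the cytosol, fold a chain inside a closed chamber. In neurons, Hsp70 also strips clathrin from endocytosed vesicles, and TRiC folds actin and tubulin.

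Of the 77 genes tested, 9 rose and 0 fell at an adjusted p under 0.05 (limma, Benjamini-Hochberg over 28035 genes and unnamed features). The 9 genes were 11.7% of those tested, against 5.93% higher and 0.847% lower (6.77% in all) among the 17938 tested genes with a symbol. Among all 28035 genes and unnamed features the shares were 5.89% higher and 1.16% lower, or 7.05% in all. These shares are also the background for each family and list count below. At an unadjusted p under 0.05, limma gave 16 chaperone genes higher and 3 lower, beside 14.6% and 7.89% of the genes with a symbol. A test without the shared variance gave 19 and 2, of which 0 passed after adjustment, beside 1 of all 28035 features. The 77 genes had a median log2 ratio of 0.45, with quartiles at -0.31 and 0.95, and 47 of them lay above 0. All tested genes with a symbol had a median of -0.04, and 48.5% of them lay above 0. The median spread between arrays was close in both sets, with an SD of 0.88 for the chaperone genes and 0.95 for all genes with a symbol.

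The direction and the calls rest on how the arrays were put on one scale. With the deposited level of each array kept, 0 chaperone genes were higher and 16 lower (20.8%), while 28.9% of all features were lower. Their median was -0.83, and the median of all features tested was -1.52. With each array centred on its ribosomal protein genes, 0 were higher and 39 lower (50.6%), while 70.1% of all features were lower. The share of chaperone genes called lower was thus below that of all features in both. The chaperone median was above the median of all features by either scaling, -1.65 against -2.24 in the second. The 9 genes that rose as centred here had means above 0 in all 9 with levels as deposited, and in 4 of the 9 with ribosomal centring.

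**Figure D1:**
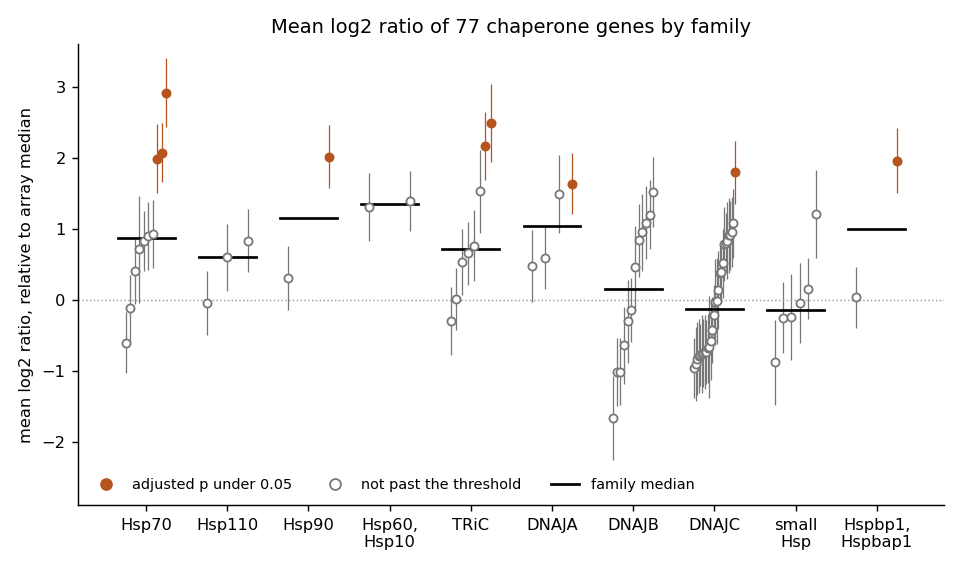
Mean log2 ratio (y axis, relative to the median of each array) of each of the 77 tested chaperone genes, ordered within its family (x axis), with the standard error from limma as a vertical line, filled points past an adjusted p of 0.05 and a bar at the family median. The 9 filled points lie between 1.63 and 2.91, and the DNAJC family, with 28 genes, is centred near 0.

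The 9 genes that rose were Hspa12b, Cct5, Cct7, Hspa5, Hsp90aa1, Hspa8, Hspbp1, Dnajc6 and Dnaja1. Their 44 single-array values, on which the genes were selected, were all above 0, and the lowest of them stood at percentile 72.6 of its array. The calls needed both array 1 and array 2. Without array 1, and without array 2, 0 of the 9 genes passed, at limma adjusted p-values of 0.0649 to 0.115 and 0.0608 to 0.0907. The loss was shared by all features, of which 0.232% were higher without array 1 and 0.258% without array 2, down from 5.89%. On arrays 3 to 5 alone 0 of the 9 passed, at 0.242 to 0.313, and 0 of 24832 features did (10 chaperone genes were higher at an unadjusted p under 0.05). On arrays 1 and 2 alone 5 of the 9 passed, beside 5.24% of all features higher, namely Cct5, Cct7, Hsp90aa1, Hspa12b and Hspa8. The mean log2 ratios of the 9 stayed above 0 in each of these subsets, at 1.24 or more. Of the 63 probe values behind the 9 genes, 22.2% were ratios of small whole numbers, against 61.7% of 630 values of the other chaperone genes. The same gap was seen among all genes with a symbol, at 27.5% in those called higher and 64.5% in the others. With such values left out and the array centres kept, all 9 genes still passed, at limma adjusted p-values of 0.00298 to 0.0168, but so did 48.3% of all features upward, and with the centres computed anew 0 of the 9 passed.

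**Figure D2:**
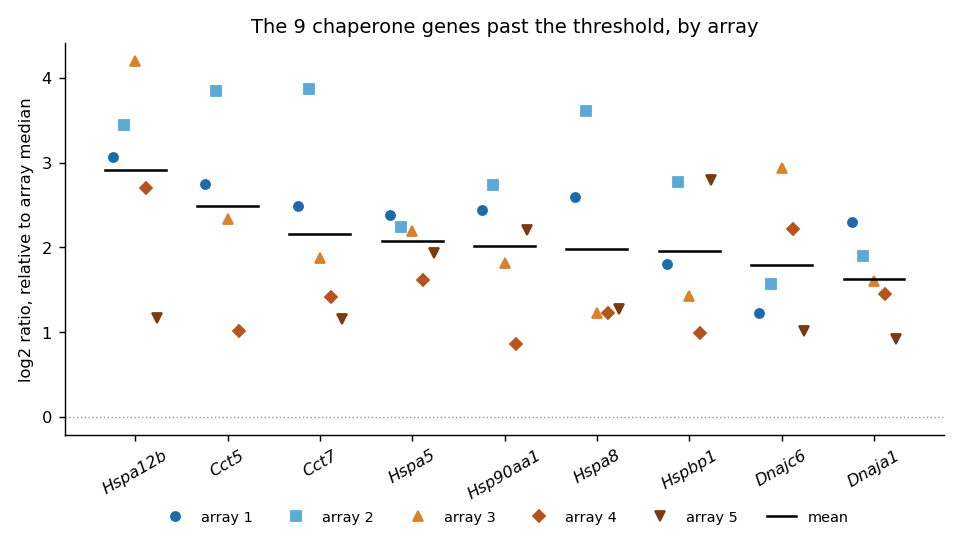
Log2 ratio relative to the array median (y axis) of the 9 chaperone genes past the threshold (x axis), 1 marker per array and a bar at the mean. Every marker lies above 0, and array 2 is the highest array for Cct5, Cct7, Hsp90aa1 and Hspa8.

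In the Hsp70 family 3 of 10 tested genes rose, 0 fell, and the family median was 0.86. Hspa8 is the constitutive cytosolic Hsp70 and the protein that uncoats clathrin vesicles. Its log2 ratios on arrays 1 to 5 were 2.59, 3.61, 1.23, 1.23 and 1.27. Arrays 1 and 2 stood well above the other 3, which lay close together. The mean was 1.99 ± 1.08 (SD, n = 5), with a limma adjusted p of 0.0247, and its 2 probes gave 1.67 and 2.30.

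Hspa5, known as BiP, is the Hsp70 of the endoplasmic reticulum and a sensor partner in the unfolded protein response. The 5 arrays gave 2.38, 2.24, 2.19, 1.62 and 1.93. These values were the tightest of the 9 genes, and all lay between percentiles 89.4 and 95.3 of their arrays. The mean was 2.07 ± 0.30 (SD, n = 5), with a limma adjusted p of 0.0137.

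Hspa12b is a distant Hsp70 relative known mainly from endothelial cells. It had the highest mean of the 77 genes, from 1 probe that read 3.07, 3.44, 4.20, 2.70 and 1.16. Array 5 was the low one. The mean was 2.91 ± 1.12 (SD, n = 5), with a limma adjusted p of 0.0107. Of the 5 endothelial markers tested, 0 passed the threshold by limma (1 at an unadjusted p under 0.05) and 4 lay below 0, with a list median of -0.48. The remaining marker, Cldn5, was the 1 with the low unadjusted p and was higher, at 1.51 ± 0.68 (SD, n = 4, limma adjusted p 0.0873). The part of endothelial cells in the Hspa12b ratio was not tested.

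Other Hsp70 genes did not pass. Hspa1a, the cytosolic Hsp70 that heat and stress induce, read 0.17, 1.32, 1.20, -0.90 and 0.18. It was above 0 on 4 arrays and its arrays disagreed in sign, with a mean of 0.40 ± 0.91 (SD, n = 5) and a limma adjusted p of 0.637. Its 4 probes had means from -1.58 to 1.26, and the near-identical Hspa1b cannot be told apart from it where a probe matches both. Hspa2, an Hsp70 abundant in testis, averaged 0.92 ± 1.04 (SD, n = 5, limma adjusted p 0.258) over probes at -0.73 and 2.02, of which the higher passed by itself, at 0.0200. Hspa13, a microsomal Hsp70-like protein, had the lowest mean of the family, -0.61 ± 0.53 (SD, n = 5, limma adjusted p 0.413).

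Hspa9, the mitochondrial Hsp70, was looked at after its values were seen. Its arrays gave 1.07, 1.34, 0.72, 0.86 and 0.14, all above 0. The mean was 0.82 ± 0.45 (SD, n = 5) with a limma adjusted p of 0.254, and its probes were far apart, at -0.37 and 2.02. The higher probe alone passed, with a limma adjusted p of 0.0171.

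None of the 3 Hsp110 genes, the exchange factors related to Hsp70, passed the limma threshold (0 also at an unadjusted p under 0.05). Hsph1, a strongly heat-inducible Hsp110, read 1.28, -1.06, 1.27, 0.47 and 1.03. Array 2 went against the other 4, and the mean was 0.60 ± 0.98 (SD, n = 5, limma adjusted p 0.467). Hspa4 had the highest mean of the 3, 0.83 ± 0.70 (SD, n = 5, limma adjusted p 0.272), and Hspa4l the lowest, -0.04 ± 0.78 (SD, n = 5, limma adjusted p 0.966). Hspbp1, another exchange factor of Hsp70, rose. Its arrays gave 1.80, 2.77, 1.43, 0.98 and 2.80, with arrays 2 and 5 highest, and both of its probes passed singly, at means of 1.71 and 2.06. The gene mean was 1.96 ± 0.81 (SD, n = 5), with a limma adjusted p of 0.0202.

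Both tested Hsp90 genes had means above 0 and 1 rose. Hsp90aa1, the stress-inducible cytosolic Hsp90, read 2.44, 2.74, 1.82, 0.85 and 2.20. Array 4 was the low one, and 0 of the 5 values were ratios of small whole numbers. The mean was 2.01 ± 0.73 (SD, n = 5), with a limma adjusted p of 0.0175. Hsp90b1, the Hsp90 of the endoplasmic reticulum, read 0.71, 0.86, -0.75, 0.96 and -0.28, so its arrays lay on both sides of 0. Its mean was 0.30 ± 0.77 (SD, n = 5, limma adjusted p 0.724), over probes at -1.02 and 1.62.

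The mitochondrial chaperonin Hspd1 and its lid Hspe1 were above 0 on all 5 arrays and did not pass. Hspe1 read 1.97, 1.50, 1.29, 0.88 and 1.31, none of them a ratio of small whole numbers. Its mean of 1.39 ± 0.39 (SD, n = 5) had a limma adjusted p of 0.0613, and it passed when only genes measured on all 5 arrays were tested and when arrays were weighted. Hspd1 read 1.08, 3.07, 1.23, 0.27 and 0.88, with array 2 far above the rest, and averaged 1.31 ± 1.05 (SD, n = 5, limma adjusted p 0.114).

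The TRiC chaperonin is a ring of 8 different subunits, all of which were measured. Of these genes 2 rose, 0 fell, 7 had a mean above 0, and the median was 0.71. Cct5 read 2.74, 3.84, 2.34 and 1.02 on arrays 1 to 4 and had no value on array 5. Array 2 was the highest and array 4 the lowest, and the mean was 2.48 ± 1.17 (SD, n = 4), with a limma adjusted p of 0.0185. Cct7 read 2.49, 3.87, 1.88, 1.42 and 1.15. Arrays 1 and 2 again lay above the other 3, and the mean was 2.16 ± 1.08 (SD, n = 5), with a limma adjusted p of 0.0180.

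The other 6 subunits did not pass. Cct8 had values on 3 arrays only, 1.92, 0.92 and 1.75, and a mean of 1.53 ± 0.53 (SD, n = 3, limma adjusted p 0.136). Cct6a, Cct2 and Tcp1 had means of 0.76, 0.65 and 0.53, each with 1 array below 0, and limma adjusted p-values of 0.373, 0.392 and 0.512. Cct4 was at 0.01 ± 0.68 (SD, n = 5, limma adjusted p 0.994), and its sign turned under several settings. Cct3 averaged -0.30 ± 1.05 (SD, n = 5, limma adjusted p 0.741), with array 2 alone above 0. The subunits of one ring thus covered a range of log2 ratios from -0.30 to 2.48, and the differences between them were not tested. Probes of one subunit differed too, with means of -0.97 to 0.79 for Cct4 and -0.63 to 0.99 for Tcp1. The probe means were closer for Cct2, at 0.27 to 1.03, and for Cct3, at -0.39 to -0.04. Cct5 and Cct7 rest on 1 probe each.

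**Figure D3:**
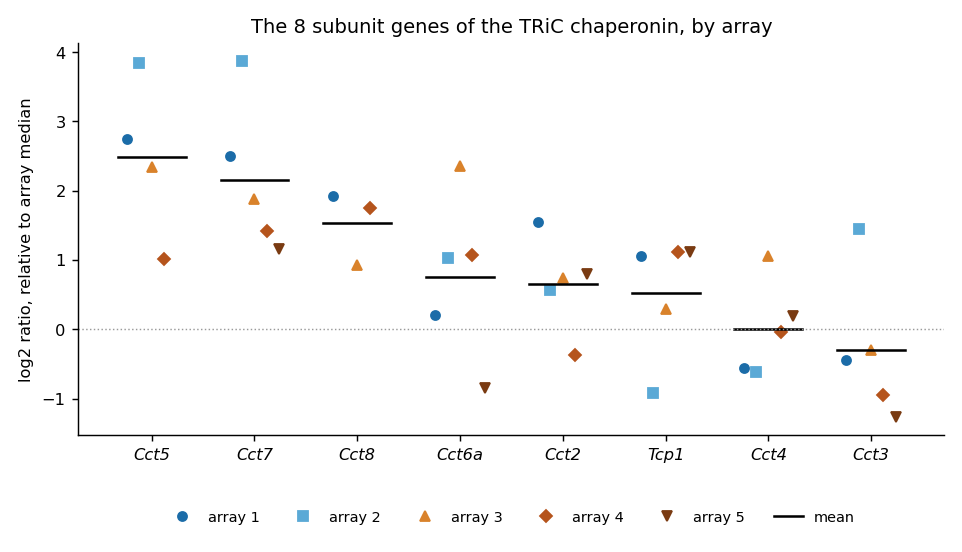
Log2 ratio relative to the array median (y axis) of the 8 TRiC subunit genes (x axis), 1 marker per array and a bar at the mean, with no marker where the array had no value. Cct5, Cct7 and Cct8 lie above 0 on every array with a value (3 arrays for Cct8), whereas Cct6a, Cct2, Tcp1, Cct4 and Cct3 have arrays on both sides.

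Among the J-domain proteins the DNAJA genes lay highest. All 4 DNAJA genes had means above 0, with a median of 1.04, and 1 rose. Dnaja1, a cytosolic Hsp70 partner that stress induces, read 2.29, 1.90, 1.60, 1.45 and 0.92. Every array was above 0, and the mean was 1.63 ± 0.51 (SD, n = 5), with a limma adjusted p of 0.0339. Its 3 probes ranged from 0.98 to 2.32. Dnaja1 was among the least firm of the calls, since it was also lost without array 3 and without array 4, at limma adjusted p-values of 0.0643 and 0.0663. The lowest of the family was Dnaja3, a J-domain protein of mitochondria, at 0.47 ± 0.72 (SD, n = 4, limma adjusted p 0.603).

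Of 12 tested DNAJB genes, 0 passed by limma in either direction (2 higher and 2 lower at an unadjusted p under 0.05), and their median was 0.15. Dnajb11, a BiP partner in the endoplasmic reticulum, had the highest mean. It read 0.22, 1.78, 2.46, 0.39 and 2.74, with arrays 2, 3 and 5 high, and averaged 1.52 ± 1.16 (SD, n = 5, limma adjusted p 0.0789). Dnajb1, the heat-inducible Hsp40, was below 0 on each of its 4 arrays, at -1.005, -1.06, -1.48 and -0.54. Its mean was -1.02 ± 0.39 (SD, n = 4, limma adjusted p 0.220), from 1 probe at 0.02 and 1 at -2.06 that passed alone, at a limma adjusted p of 0.0396. Dnajb13, a protein of sperm flagella, had the lowest mean of all 77 genes, -1.67 ± 1.83 (SD, n = 5, limma adjusted p 0.105), and array 3 at -4.58 was far below the others.

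The DNAJC genes, which carry a J domain on otherwise different proteins, were the largest family, with 28 tested. Their median was -0.13, 1 rose and 0 fell (2 and 1 at an unadjusted p under 0.05). Dnajc6, or auxilin, which recruits Hspa8 to clathrin coats in neurons, read 1.22, 1.56, 2.94, 2.21 and 1.01. Unlike Hspa8 it was highest on arrays 3 and 4. The mean was 1.79 ± 0.79 (SD, n = 5), with a limma adjusted p of 0.0285. It too was lost without array 3 and without array 4, at limma adjusted p-values of 0.0841 and 0.0779.

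Dnajc5, the cysteine string protein of synaptic vesicles, read 0.76, 1.45, 0.65, 0.50 and 0.60. All arrays were above 0, array 2 stood apart, and the mean was 0.79 ± 0.38 (SD, n = 5, limma adjusted p 0.268). Dnajc2, a ribosome-associated J-domain protein, had the lowest mean of the family and was below 0 on every array, at -0.34, -0.85, -1.14, -0.83 and -1.66. That mean was -0.96 ± 0.48 (SD, n = 5, limma adjusted p 0.185).

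Of the 8 small heat shock proteins on the arrays 6 could be tested, and 0 passed by limma (0 also at an unadjusted p under 0.05). Their median was -0.15. Hspb1, a small heat shock protein that stress induces, read 0.25, -1.56, -0.39 and 1.49, which covers both signs, and averaged -0.05 ± 1.27 (SD, n = 4, limma adjusted p 0.966). Hspb3, a muscle protein, had the highest mean, 1.20 ± 1.02 (SD, n = 3, limma adjusted p 0.258). Hspb11, a subunit of intraflagellar transport in cilia, had the lowest and split by array. It read 0.46 and 0.48 on arrays 1 and 2 and -2.21 and -2.26 on arrays 3 and 5, with a mean of -0.89 ± 1.56 (SD, n = 4, limma adjusted p 0.396).

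The 3 genes that could not be tested had few values. Hspb6 had 1 array, at -0.88, and Hspb8 had 2, at -0.83 and -1.85. Dnajb7 had 2 arrays, at -0.28 and 0.11.

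Of the 51 chaperone genes with values on all 5 arrays, 13 were above 0 on every array and 2 below 0 on every array. These are 25.5% and 3.92%, and among all 9140 genes with a symbol and 5 values the shares were 21.7% and 6.19%. With 5 arrays the exact sign-flip permutation test (two-sided) cannot go below 0.0625. It gave that value for the 8 of the 9 genes that had 5 values, and 0.125, the smallest that 4 arrays allow, for Cct5. Since the 9 genes were selected on these same values, all above 0, this is no separate support. On every array the chaperone median was above that of all features tested. It was 0.45, 0.91, 0.64, 0.36 and 0.23 on arrays 1 to 5, while that of all features lay between -0.08 and 0.02.

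Probes of one gene often disagreed. Of 44 chaperone genes with at least 2 measured probes, 24 had probe means on both sides of 0, and the median range of probe means within a gene was 1.45. When each of the 159 measured probes was tested by itself, 15 passed upward (9.43%) and 3 downward (1.89%), in 13 and 3 genes. Of all 38953 probes tested, 6.36% passed upward and 1.32% downward. The genes added by a single probe were Dnajc14, Hspa2, Hsp90b1 and Hspa9 upward, and Dnajb1, Dnajc5b and Dnajb13 downward. Of the 9 genes that rose by their mean, 6 had 1 probe on the array and so no such check.

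Probes that carry one accession showed this scatter within an array. Hspb7, a heart and muscle protein, had 11 probes with one accession, and Dnajc11, a mitochondrial J-domain protein, had 10 (both were chosen after their values were seen). Within an array these probes of Hspb7 had a median SD of 1.50, and those of Dnajc11 a median SD of 1.21. Averaged over them, Hspb7 read -0.75, 0.41, 0.16, 0.22 and 0.73, and the SD of these means, 0.55, was close to the 0.50 that the scatter of the probes alone would give. Dnajc11 averaged -0.84, 0.29, -0.50, -0.48 and 0.14, with an SD of 0.47 against 0.51.

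**Figure D4:**
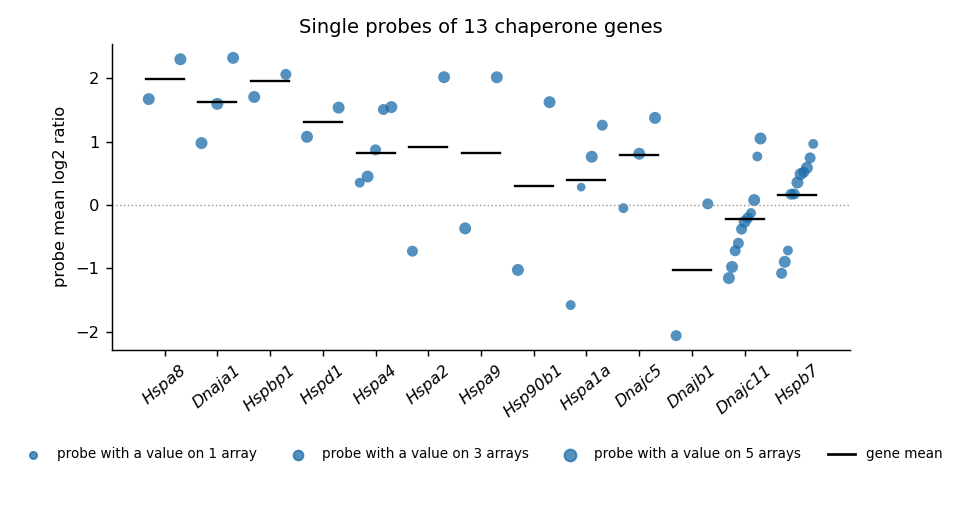
Mean log2 ratio (y axis, relative to the array median) of each probe of 13 chaperone genes with several probes (x axis), with the point size giving the number of arrays with a value and a bar at the gene mean. Probes of Hspa2, Hspa9, Hsp90b1, Hspa1a and Dnajb1 lie on both sides of 0, and the probes of Hspa8 and Hspbp1 lie close together.

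By compartment and role, the lists of chaperone genes overlapped with the families above. Of 8 tested stress-inducible members 2 rose, Hsp90aa1 and Dnaja1, and the median was 0.95. Of 8 members of the endoplasmic reticulum 1 rose, Hspa5, with a median of 0.34. Of 8 mitochondrial members 0 passed by limma (2 higher at an unadjusted p under 0.05), with a median of 0.86. Of 3 members at synaptic vesicles and coats 1 rose, Dnajc6.

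Genes that work with the chaperones were followed through 5 lists of 65 tested genes, of which 8 rose and 0 fell by limma (2 lower at an unadjusted p under 0.05). The 8 were 12.3%, against 5.93% higher and 0.847% lower among all tested genes with a symbol. As with the chaperone genes, 0 of these 8 passed without array 1 or without array 2, at limma adjusted p-values of 0.0649 to 0.137 and 0.0597 to 0.109. Of all features, 0.232% and 0.258% were higher there. Bag6 and Canx were also lost without array 3 and without array 4, at 0.0618 to 0.0787, Pfdn5 without array 3, at 0.0501, and Serpinh1 without array 4, at 0.111. None of the 8 passed with array levels as deposited, with ribosomal centring (3 of 8 above 0) or with exact zeros kept and the centre moved, and 4 passed with zeros kept at the reported centre. Without ratios of small whole numbers 0 passed with the centre moved and 7 with it kept. In the endoplasmic reticulum 3 of 19 rose and 16 had means above 0, with a median of 0.42. Calr and Canx, the lectin chaperones of glycoproteins, averaged 1.80 ± 0.28 and 1.60 ± 0.66 (SD, n = 5, limma adjusted p 0.0201 and 0.0404), and Calr read 1.94, 2.12, 1.91, 1.60 and 1.43. Serpinh1, the collagen chaperone, averaged 1.68 ± 0.79 (SD, n = 5, limma adjusted p 0.0370). The SD of Calr between arrays, 0.28, was close to that of BiP, 0.30, and Pdia4 of the same list varied less, at 0.18 (SD, n = 4).

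Prefoldin hands unfolded actin and tubulin to TRiC. Of 10 prefoldin and TRiC partner genes 2 rose and 9 had means above 0, with a median of 1.10. Pfdn2 averaged 2.29 ± 0.78 and Pfdn5 1.87 ± 1.06 (SD, n = 5, limma adjusted p 0.0131 and 0.0310). Of 22 Hsp70 and Hsp90 co-chaperones 1 rose, Bag6, which guards hydrophobic proteins in the cytosol, at 1.64 ± 0.61 (SD, n = 5, limma adjusted p 0.0360). The median of the 22 was 0.30, with 13 means above 0 and 9 below.

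Of 5 tested heat shock factors and binding proteins 2 rose, with a list median of 0.15. Hsf2bp, which binds heat shock factor 2, averaged 2.62 ± 0.80, and Hsbp1, which binds the trimer of heat shock factor 1, averaged 2.16 ± 0.98 (SD, n = 5, limma adjusted p 0.0116 and 0.0164). Neither is a heat shock factor. Of 9 mitochondrial folding partners 0 passed by limma (0 also at an unadjusted p under 0.05), with a median of 0.08. The lowest p-values belonged to the import protein Timm44, at 1.01 ± 0.48, and the protease Lonp1, at 0.90 ± 0.39 (SD, n = 4, limma adjusted p 0.227 and 0.276).

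Of 25 tested markers of cell types, 1 passed the limma threshold. The red cell gene Hba-a1 was higher, at 3.26 ± 1.74 (SD, n = 5, limma adjusted p 0.0122), and Alas2, the other red cell marker tested, was at -0.77. The list medians were 1.25 for 5 astrocyte genes (3 higher at an unadjusted p under 0.05), 0.89 for 5 pyramidal neuron genes (2 higher), 0.24 for 4 of the oligodendrocyte lineage (1 higher, Olig1 at 1.50) and -0.34 for 4 of microglia. The part of cell make-up in the chaperone ratios was not tested.

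Promoters were searched for the known elements of the heat shock and endoplasmic reticulum stress responses, and the genes shown were chosen after their ratios were seen. No test linked an element to the ratios. Sequence came from RefSeq (mouse GRCm38.p6), 250 bases before to 50 after each transcription start, for 66 chaperone genes and 53 partner genes. The endoplasmic reticulum stress element was searched on both strands as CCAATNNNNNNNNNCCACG. It stood in 0.119% of all 32851 promoters, or 0.137% of 27025 genes. Among them were 3 of the 66 chaperone genes (Hspa5, Hsp90b1 and Dnajc3) and 4 of the 53 partners (Calr, Canx, Pdia6 and Creld2). The element is in capitals in the 3 genes that rose, each read along its gene's strand, with the reverse form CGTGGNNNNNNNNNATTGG in Calr. The stretches are chr2:34772000-34772068 (plus strand), chr8:84847050-84847118 (minus) and chr11:50325775-50325843 (minus).
Hspa5: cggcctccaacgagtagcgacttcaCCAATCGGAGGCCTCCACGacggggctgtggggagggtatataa
Calr: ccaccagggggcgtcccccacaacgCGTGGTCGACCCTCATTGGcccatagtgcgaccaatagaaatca
Canx: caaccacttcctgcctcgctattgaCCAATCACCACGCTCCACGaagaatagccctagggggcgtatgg

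Of the 7 chaperone and partner genes with this element, those 3 passed and the other 4 did not. The mean log2 ratios of the 4 were 0.30 for Hsp90b1, 0.38 for Dnajc3, 0.49 for Pdia6 and 0.83 for Creld2. The element stood in 37 of the 27025 genes searched, and calls were looked up only for the chaperone and partner genes. Across the arrays, limma called 5.93% of the genes that carry a symbol higher. Whether the element goes with a higher ratio was not tested. A match describes letters in the window and not a bound site.

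The heat shock element, to which heat shock factor binds, was searched on both strands as 3 alternating units, GAANNTTCNNGAA. It stood in 0.603% of all promoters (0.662% of all genes) and in 4 of the 66 chaperone genes, Hspd1, Hspe1, Dnajb6 and Hsph1, none of which passed the threshold by limma. The shorter form with 2 units, GAANNTTC, which lies inside the longer one, stood in 7.86% of all promoters (9.04% of all genes) and in 14 of the 66 chaperone genes. Of the 9 genes that rose, Dnaja1 was the only one in which this form was found. Promoters were searched for 66 of the 80 chaperone genes, and a gene without a searched promoter could show no match. Hspd1 and Hspe1 are divergent neighbours, and their matches are the same bases, chr1:55088059-55088076, read from opposite strands. The stretch shown is chr1:55088034-55088101 on the plus strand, with the overlapping matches in capitals.
Hspe1: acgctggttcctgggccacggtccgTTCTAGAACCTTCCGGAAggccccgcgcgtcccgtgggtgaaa

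The number of calls moved with the settings. A change in which values are kept also moved the median on which each array was centred, so both forms were run, the second added after the data were seen. Keeping exact zeros left 1 gene higher, Hspa12b, beside 0.163% of all features, and 6 higher beside 2.98% of all features with the reported centre kept. Leaving out ratios of small whole numbers left 0 of 33 genes higher by limma (5 at an unadjusted p under 0.05), beside 0.555% of 5222 features. With the reported centre kept it left 18 of the 33 higher, or 54.5%, beside 48.3% of all features, and 1 lower, Dnajb13. Hsp90aa1, which had no zero and no such ratio, went from 2.01 to 1.14 when the centre moved and stayed at 2.01 when it did not. Scaling the arrays, a robust prior, or testing genes with at least 2 arrays gave 9 each time, the same 9 genes.

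**Figure D5:**
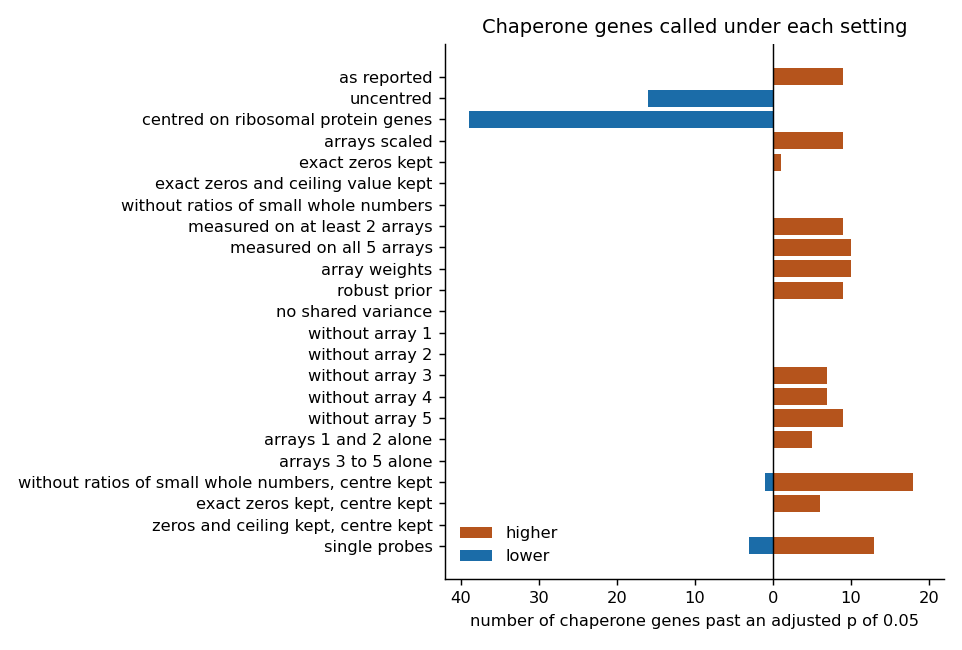
Number of chaperone genes past an adjusted p of 0.05 (x axis, higher to the right, lower to the left) under each of 23 settings (y axis), where "single probes" counts genes with at least 1 probe past it. The first bar is the 9 genes described here, 2 settings that change the level of each array turn the direction to 16 and 39 genes lower, and the counts without array 1 and without array 2 are 0.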

How the data were processed

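The table held, per feature and array, the deposited log2 ratio of the 2 channels made by the authors. Image reading, background treatment and any normalization before deposit: not given in the sources used here. Exact zeros and the ceiling value of 16.61 were taken as not measured, each array was centred on its median, and probes of one symbol were averaged. Symbols came from the platform annotation: 32042 probes had 1 symbol, 47 several (not named) and 12201 none. Genes measured on at least 3 of the 5 arrays were tested against 0 with limma 3.58.1 in R 4.3.3, with Benjamini-Hochberg adjustment over 28035 genes and unnamed features. The procedure was run on simulated data with independent normal noise. That simulation held no array level shifts, small-number ratios or dye effect, so it could not test the calls against these. Intervals of single values rest on the number of arrays, since the files give no depth or intensity. No sample column was left unused.

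Named were members past the threshold, the highest and lowest of each family, a fixed set of well-known chaperones and all TRiC subunits, and from each partner list the genes past the threshold or the 2 with the smallest p. Of the fixed set Hspa1b and Hsp90ab1 were not analysed here. Members and lists were chosen with earlier results of these data known. Alternatives covered array level and scale, exact zeros, ceiling values, small-number ratios, missing values, single probes, array weights, the variance model, the test and the arrays used.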

Additional observations from a re-analysis of the deposited data

Results flagged for a closer look

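Among 44 named genes with values on 4 or 5 arrays, Dnajc5 was the one with 1 array far from the others, array 2 at 1.45 against 0.76, 0.65, 0.50 and 0.60. Chance flags about 1 in 20 such genes.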

How the results depend on the processing

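The count of 9 genes higher became 0 with array levels as deposited, 0 with centring on ribosomal protein genes, 1 with exact zeros kept, 0 with zeros and the ceiling kept, 0 without small-number ratios, 0 with a test without shared variance, 5 on arrays 1 and 2 alone, 0 on arrays 3 to 5 alone, and 0 to 9 with 1 array left out (0 without array 1 and without array 2). Where 0 were higher, the count at an unadjusted p under 0.05 ran from 0 with ribosomal centring and 1 with levels as deposited to 19 without shared variance. Of all features, the shares higher were 0.225% with levels as deposited, 0.139% with ribosomal centring, 0.163% with zeros kept and 0.555% without small-number ratios. With zeros and the ceiling kept 0 of 31335 features were higher, and without shared variance 1 of 28035. The count of 0 lower became 16 (20.8%) with levels as deposited, 39 (50.6%) with ribosomal centring and 3 with single probes, against 28.9%, 70.1% and 1.32% of all features or probes. The median of 0.45 became -0.83, -1.65 and 0.17 under those 3 settings, and the median of all features -1.52, -2.24 and -0.13. With the array centres kept as reported, alternatives added after the data were seen, leaving out small-number ratios gave 18 higher, 1 lower and a median of 1.39 (all features 1.37), keeping zeros gave 6 higher, and keeping zeros and the ceiling gave 0 (15 at an unadjusted p under 0.05). Of all features, 48.3% were higher in the first, 2.98% in the second and 0 in the third. Level changes shift every gene of an array by one amount, and the centre moves with the values kept; otherwise the cause was not tested. Over the named genes and their alternatives, 636 values kept direction and call, and 77 changed sign, some of these with a call gained or lost. Of the values that kept their sign, 184 lost the call and 24 gained one. With array levels as deposited, the turned log2 ratios were Cct2 -0.57, Cct4 -1.21, Cct6a -0.46, Dnaja3 -1.11, Dnajc5 -0.43, Hsp90b1 -0.92, Hspa1a -0.82, Hspa2 -0.30, Hspa4 -0.39, Hspb3 -0.79, Hsph1 -0.62, Tcp1 -0.69, Timm44 -0.57, Lonp1 -0.68, Hspa9 -0.39 and Hspb7 -1.06. With centring on ribosomal protein genes, the turned log2 ratios were Cct2 -1.39, Cct4 -2.04, Cct6a -1.29, Cct8 -0.045, Dnaja1 -0.41, Dnaja3 -1.66, Dnajb11 -0.53, Dnajc5 -1.25, Dnajc6 -0.26, Hsp90aa1 -0.035, Hsp90b1 -1.75, Hspa1a -1.65, Hspa2 -1.12, Hspa4 -1.22, Hspa8 -0.059, Hspb3 -1.21, Hspbp1 -0.088, Hspd1 -0.74, Hspe1 -0.66, Hsph1 -1.45, Tcp1 -1.52, Bag6 -0.41, Pfdn5 -0.17, Calr -0.25, Serpinh1 -0.36, Canx -0.44, Timm44 -1.12, Lonp1 -1.23, Hspa9 -1.22 and Hspb7 -1.89. With scaled arrays, the turned log2 ratios were Cct4 -0.030 and Hspa4l 0.030. With exact zeros kept, the turned log2 ratios were Cct4 -0.13 and Hspb7 -0.054. With zeros and the ceiling kept, the turned log2 ratios were Cct3 0.71 and Cct4 -0.13. Without small-number ratios, the turned log2 ratios were Tcp1 -0.43, Pfdn5 -0.32 and Hspb7 -0.84. With array weights, the turned log2 ratios were Cct4 -0.051, Hspa4l 0.095 and Hspb1 0.042. On arrays 1 and 2 alone, the turned log2 ratios were Cct3 0.50, Cct4 -0.59, Hspa4l 0.74, Hspb11 0.47 and Hspb7 -0.17. On arrays 3 to 5 alone, the turned log2 ratios were Hsp90b1 -0.025 and Hspb1 0.55. With the reported centre, Hspa4l turned to 0.10 with zeros kept and to 0.10 with zeros and the ceiling kept, where Cct3 turned to 0.94 and Dnajc11 to 0.13, and Dnajc11 turned to 0.27 without small-number ratios. With 1 array left out, Cct4 ranged from -0.26 to 0.17, Hspa4l ranged from -0.33 to 0.15 and Hspb1 from -0.57 to 0.45. Each ratio sets cocaine against saline RNA on 1 array, so its test already pairs the 2 channels of an array. Whether that pairs litters is not stated, and with one group no block by replicate number could be added. The number of arrays and the share of missing values limit precision, with 51 of 77 genes measured on all 5.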
